A study of Mus musculus with 9 samples.

Results

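Collagen chain genes are the genes that encode the alpha chains of the collagens, the main structural proteins of the extracellular matrix. They were taken as every row of the authors' gene tables whose symbol reads Col, a number, the letter a and a number. This gave 44 of the 22631 genes in the table that compares Mutant with Control and 42 of the 27775 genes in the table that compares arms abbreviated PT and PUT. All 42 were also among the 44. The series holds 9 RNA libraries of satellite cells from hindlimb muscle of 9-week-old mice, 3 each from Control, Mutant and Cre Control. Control animals were given oil and Mutant animals, deficient in Uhrf1 in satellite cells, tamoxifen (150 µl of 20 mg/ml into the abdomen on 5 days), the drug that switches on an inducible Cre; Cre Control animals had tamoxifen too. For Control and Mutant the cells were grown for 3 days on Matrigel, a basement membrane extract, in 20% serum, so both are cells in culture. The sources used here do not name the promoter that drives Cre. The Cre Control libraries were not analysed here, and the labels do not say which groups PT and PUT are, so those arms were given no group.

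Each collagen molecule is a triple helix of alpha chains, and the class of a collagen follows from what the molecules then build. Fibrillar chains make the banded fibres of connective tissue, type IV chains make the sheet of the basement membrane, and FACIT chains (fibril-associated collagens with interrupted triple helices) decorate fibres. Satellite cells lie under the basement membrane of the muscle fibre, and collagens V and VI are known components of their niche. Uhrf1 guides the maintenance methyltransferase to CG sites of newly copied DNA, so the CG content of a promoter is given with the chains below.

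The promoters of 4 chains are shown to set CG-poor beside CG-rich starts, and chains that differed between Mutant and Control beside abundant chains that did not pass. Each is the 250 bases before the start, read 5′ to 3′ on the plus strand of GRCm38 and taken from RefSeq, with every CG in capitals. For Col27a1 the start is that of RefSeq, which lies inside the gene as GENCODE M21 bounds it, while the other 3 stretches end at the base before the GENCODE start. Col3a1 had 0 CG in this stretch, Col7a1 7, Col27a1 15 and Col5a1 28.
Col7a1 (chr9:108953336-108953585): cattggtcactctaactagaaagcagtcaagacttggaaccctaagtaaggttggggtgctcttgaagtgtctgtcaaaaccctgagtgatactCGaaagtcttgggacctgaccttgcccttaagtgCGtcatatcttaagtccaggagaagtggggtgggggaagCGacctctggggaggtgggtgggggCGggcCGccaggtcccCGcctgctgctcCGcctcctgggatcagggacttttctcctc
Col27a1 (chr4:63215162-63215411): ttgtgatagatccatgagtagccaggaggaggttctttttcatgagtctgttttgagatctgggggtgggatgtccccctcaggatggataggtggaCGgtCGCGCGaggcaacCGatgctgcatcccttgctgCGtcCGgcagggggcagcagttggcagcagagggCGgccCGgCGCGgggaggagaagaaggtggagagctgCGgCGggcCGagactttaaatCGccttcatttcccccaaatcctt
Col3a1 (chr1:45311288-45311537): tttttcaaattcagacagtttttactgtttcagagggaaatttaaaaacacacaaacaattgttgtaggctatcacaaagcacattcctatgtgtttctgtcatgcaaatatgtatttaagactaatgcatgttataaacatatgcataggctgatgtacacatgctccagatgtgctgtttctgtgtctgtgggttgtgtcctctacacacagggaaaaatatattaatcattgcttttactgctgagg
Col5a1 (chr2:27886175-27886424): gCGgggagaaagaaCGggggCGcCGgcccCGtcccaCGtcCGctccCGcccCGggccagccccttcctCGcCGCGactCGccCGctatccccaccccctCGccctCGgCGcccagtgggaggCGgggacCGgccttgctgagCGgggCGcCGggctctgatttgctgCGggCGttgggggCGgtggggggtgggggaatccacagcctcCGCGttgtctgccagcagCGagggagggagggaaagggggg
Over the 300 bases from 250 before to 50 after a start, RefSeq windows were found for 35 of the 44 chains, 38 windows in all. Their median was 11.5 CG, from 0 to 37, beside a median of 7 over all 32851 windows of the build. Over these 300 bases Col3a1 had 0 CG, Col7a1 12, Col27a1 18 and Col5a1 34. The pentamer CCAAT, searched on both strands and sharing no base with any CG, was in 13 of the 38 collagen windows (34.2%) and in 37.4% of all windows. Col18a1, the chain with the largest rise among those of at least 10 TPM, had 2 such windows with 6 and 16 CG.

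Gene levels were deposited as group means, so the spread between libraries is known through the standard errors alone and the depth per library is unknown. Levels are the authors' mean TPM, a read count scaled to transcript length and library total, so levels can be compared between genes. Differences between Mutant and Control are the test estimate on the log2 scale, the product of the statistic and the standard error (SE) that the authors' deposited table lists. An estimate marked with that table is this product, which differs from the log2 value printed there. For PT and PUT the printed log2 fold change was used. A chain passed at an adjusted p below 0.05. Multiplied by 3, 99% of the Control means and 99.8% of the Mutant means between 200 and 800 TPM were whole multiples of 0.001 (within 1e-05 TPM), against 29.9% and 35.6% unmultiplied, as means over 3 libraries would be. One library stood apart in the repeat counts: the endogenous retrovirus IAPEz-int took 0.501% and 0.675% of repeat counts in Control 1 and Control 2, 13.1% in the library labelled Control 3, and 9.29%, 11.1% and 16.3% in the Mutant libraries. The Wilson 95% intervals, which cover counting error only, were 0.491 to 0.511, 0.664 to 0.686 and 13.1 to 13.2 for Control and 9.25 to 9.33, 11.1 to 11.2 and 16.2 to 16.3 for Mutant. Results without that library cannot be given from means, so its part in the values below was not tested. Uhrf1, the targeted gene, had 118 TPM in Control and 20.4 TPM in Mutant (authors' deposited table: -3.12, SE 0.60, adjusted p = 4.01e-06). Control received oil and Mutant tamoxifen, so the treatment and the loss of Uhrf1 cannot be told apart. Nothing in the labels says that libraries came from separate animals, so the p-values speak of the variation among these libraries alone, and part of it may be technical.

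The RNA carried the muscle markers of the label, and markers of other cell types at a range of levels. The 9 markers of muscle stem cells and myoblasts summed to 2643 TPM in Control and 2587 TPM in Mutant (2 rose, 4 fell). In PT against PUT, 8 of the 9 fell and 1 rose, beside the falls of the abundant collagen chains. All marker counts stand beside the shares over all genes. In Mutant 9.02% of all genes rose and 8.11% fell, and 16.1% and 19.3% of those of at least 10 TPM. In PT 25.1% of all genes rose and 22.1% fell, and 29.7% and 39.6% of those of at least 10 TPM. Of 12 markers of fibroblasts and fibro-adipogenic progenitors 2 rose and 0 fell in Mutant (3 and 0 at an unadjusted p below 0.05). The list summed to 226 and 359 TPM. By the authors' means Gsn rose from 110 to 229 TPM and Fbn1 from 56.4 to 68.5 TPM, and Thy1 (34.5 and 28.9 TPM) and Ly6a (15.1 and 22.4 TPM) did not pass. Pdgfra (2.21 and 3.09 TPM) and Dcn (1.05 and 1.07 TPM) were lower in level and did not pass, and 4 of the 12, Lum among them, lay below 1 TPM in both groups. Of the 10 fibroblast markers in the authors' deposited table of PT and PUT, Pdgfra (1.38, SE 0.31) and Dcn (4.04, SE 1.25) rose, Gsn fell (-0.21, SE 0.09) and 7 did not pass. Pdgfra and Dcn had low means of 46.0 and 5.63 normalised counts. In the same comparison 5 of 8 smooth muscle and pericyte markers rose and 1 fell, 3 of 8 endothelial markers rose, and of 5 markers of macrophages and leukocytes 3 were higher and 1 lower. The endothelial rises, in Emcn, Cdh5 and Fabp4, had means of 5.44, 12.8 and 26.8 normalised counts. Of the macrophage and leukocyte markers, Laptm5 (2.00, SE 0.12), Fcer1g (4.65, SE 0.64) and Lyz2 (4.65, SE 1.67) rose in PT by the authors' deposited table. Their means were 555, 29.4 and 2.26 normalised counts. Csf1r, the marker that fell (authors' deposited table: -0.46, SE 0.16), had a mean of 177. Tendon markers (6 of 7 listed) summed to 89.8 and 84.2 TPM, of which Scx made 83.7 and 69.1 TPM (2 rose, 1 fell). Smooth muscle and pericyte markers summed to 467 and 489 TPM, of which Acta2 made 422 and 421 TPM (2 rose, and 1 was lower at an unadjusted p below 0.05). Endothelial markers summed to 27.8 and 23.7 TPM (1 rose, 2 fell) and Schwann cell markers to 7.45 and 16.4 TPM (2 rose). Macrophage and leukocyte markers (6 of 9 listed, 2 of which rose) summed to 32.5 and 112 TPM, with Laptm5 at 25.1 and 84.8 TPM and Ptprc at 0.381 and 0.303 TPM. No marker had a mean of 0 in either group among those listed. The part of these cell types in the collagen differences was not tested, and in such samples fewer cells of a type and less RNA per cell cannot be told apart.

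The 44 collagen chains together stood at 1016 TPM in Control and 1121 TPM in Mutant, and single chains rose or fell within that total. In Mutant 6 chains rose (Col18a1, Col7a1, Col9a3, Col8a2, Col6a1 and Col24a1), 3 fell (Col1a2, Col19a1 and Col27a1) and 35 did not pass. The 9 that passed are 20.5% of the chains, beside 17.1% of all genes, with 9.02% of all genes higher and 8.11% lower. Among the 14 chains of at least 10 TPM in either group, 4 passed (28.6%), beside 35.4% of the 8992 genes at that level, of which 16.1% were higher and 19.3% lower. The share of chains that passed was thus close to that of all genes. The median test estimate was 0.27 over the chains and 0.01 over all genes, and 0.01 over the 14 abundant chains beside -0.03 over all genes at that level. The SE was wide for rare chains, with a median of 0.89 for the 15 chains under 1 TPM in both groups against 0.16 for the 14 abundant ones. Among the 14 abundant chains it ran from 0.05 for Col5a2 to 0.56 for Col6a3. Of those 15 rare chains 1 passed, and of the 15 chains in between 4 passed.

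**Figure D1:**
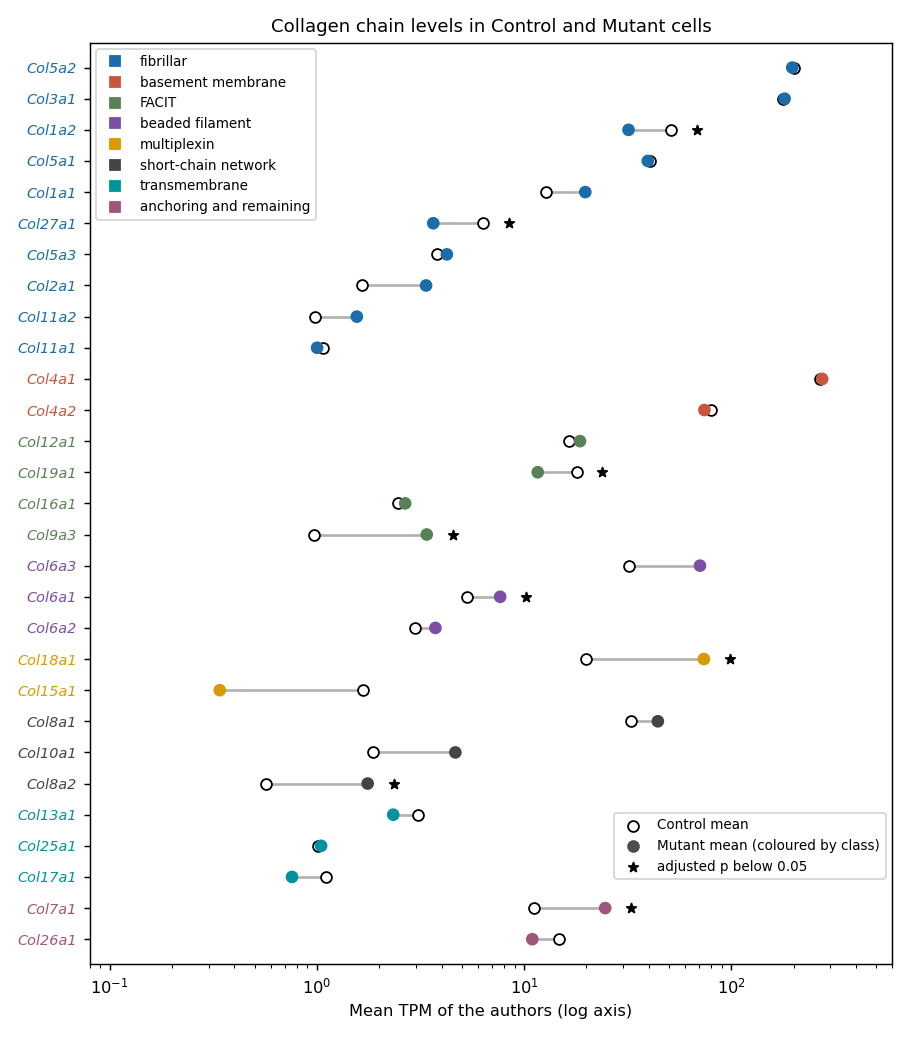
Mean TPM of the authors (log axis) in Control (open circles) and Mutant (filled circles, coloured by class) for the 29 chains of at least 1 TPM in either group. Stars mark chains with an adjusted p below 0.05. Col4a1, Col5a2 and Col3a1 lie highest with their circles almost on top of each other, while Col18a1 and Col7a1 lie to the right in Mutant and Col1a2 to the left.

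Fibrillar chains were the most abundant class, and its leading genes Col5a2 and Col3a1 did not pass. The 11 fibrillar genes summed to 499 TPM in Control and 484 TPM in Mutant, a ratio of 0.97. Of them 2 fell, 1 rose and 8 did not pass. Col5a2, a chain of collagen V, was at 202 and 197 TPM, with a test estimate of -0.02 (authors' deposited table: SE 0.05, 95% interval -0.13 to 0.09, adjusted p = 0.926). Col3a1, which forms the homotrimer of collagen III, was at 179 and 181 TPM (authors' deposited table: -0.03, SE 0.13, interval -0.28 to 0.23, adjusted p = 0.94). Col5a1, the partner of Col5a2 that sets the start of fibre assembly, was at 40.8 and 39.5 TPM (authors' deposited table: 0.06, SE 0.07, interval -0.08 to 0.20). The intervals of Col5a2 and Col5a1 reach no farther than 0.20 from 0, and that of Col3a1 reaches to -0.28.

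In type I collagen the chains had estimates of opposite sign. Col1a2 (ENSMUSG00000029661, chr6:4504814-4541544, plus strand, GRCm38) fell from 51.3 to 31.9 TPM, to 0.62 of the Control mean (authors' deposited table: -0.70, SE 0.23, adjusted p = 0.0154). Col1a1 (ENSMUSG00000001506, chr11:94936224-94953042, plus strand) had the opposite sign, with 12.8 and 19.7 TPM (authors' deposited table: 0.67, SE 0.27, adjusted p = 0.0802), and did not pass. Collagen I is usually built from a pair of Col1a1 chains and 1 Col1a2 chain. By mean TPM there was less Col1a1 than Col1a2 RNA in both groups, with a ratio of 0.25 in Control and 0.62 in Mutant. The estimates of the chains differed by 1.37 on the log2 scale, and this difference could not be tested without values per library.

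Of the rarer fibrillar genes, Col27a1, a cartilage-associated chain (ENSMUSG00000045672, chr4:63214004-63334991, plus strand), fell from 6.32 to 3.64 TPM (authors' deposited table: -0.68, SE 0.19, adjusted p = 0.0036). Col24a1 (ENSMUSG00000028197, chromosome 3) rose from 0.266 to 0.882 TPM (authors' deposited table: 1.88, SE 0.69, adjusted p = 0.0392) and had the lowest level of the 9 chains that passed. Col2a1, the collagen of cartilage, was at 1.65 and 3.36 TPM with a wide error (authors' deposited table: 1.27, SE 0.94, adjusted p = 0.489). Col5a3, the third chain of collagen V, was at 3.81 and 4.24 TPM and did not pass (authors' deposited table: 0.13, SE 0.16, adjusted p = 0.801). Col11a1 and Col11a2 stayed between 0.974 and 1.56 TPM.

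Of the 6 basement membrane chains 0 passed, also at an unadjusted p below 0.05. Col4a1 was the most abundant collagen RNA of all, with 267 and 275 TPM (authors' deposited table: 0.04, SE 0.07, interval -0.10 to 0.18, adjusted p = 0.911), and made up 26.3% of collagen TPM in Control and 24.5% in Mutant. Col4a2, with which it builds the common collagen IV trimer, was at 79.6 and 74.2 TPM (authors' deposited table: -0.10, SE 0.07, interval -0.25 to 0.04, adjusted p = 0.461). Their ratio was 3.35 in Control and 3.70 in Mutant. In GENCODE M21 the genes lie head to head on chromosome 8, Col4a1 on the minus strand from 11198423 to 11312826 and Col4a2 on the plus strand from 11312805 to 11449287, so their annotated ends overlap by 22 bases. Their promoter windows held 37 and 33 CG, and CCAAT was in both. The windows (11312777 to 11313076 and 11312555 to 11312854) overlap, so any CG or CCAAT in the shared stretch was counted in both. The remaining type IV genes, Col4a3 to Col4a6, encode chains of specialised basement membranes such as that of the kidney glomerulus. They lay below 1 TPM in both groups.

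Beaded filament chains summed to 40.5 TPM in Control and 82.1 TPM in Mutant, a ratio of 2.03, most of it from 1 gene. Col6a3, the long chain of collagen VI, was at 32.2 and 70.7 TPM but with a wide error, and did not pass (authors' deposited table: 1.09, SE 0.56, interval -0.01 to 2.19, adjusted p = 0.211). Col6a1 (ENSMUSG00000001119, chr10:76708792-76726168, minus strand) rose from 5.30 to 7.67 TPM (authors' deposited table: 0.52, SE 0.17, adjusted p = 0.0172). Col6a2 was at 2.97 and 3.73 TPM (authors' deposited table: 0.32, SE 0.25, adjusted p = 0.526). The common collagen VI monomer holds 1 chain of each kind. By mean TPM, Col6a3 exceeded Col6a1 by 6.07 times in Control and 9.22 times in Mutant, and Col6a1 exceeded Col6a2 by 1.78 and 2.05 times. Col6a4, Col6a5 and Col6a6, paralogs of Col6a3, were at or below 0.0433 TPM, and Col6a4 and Col6a5 were listed at 0 in Control.

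**Figure D2:**
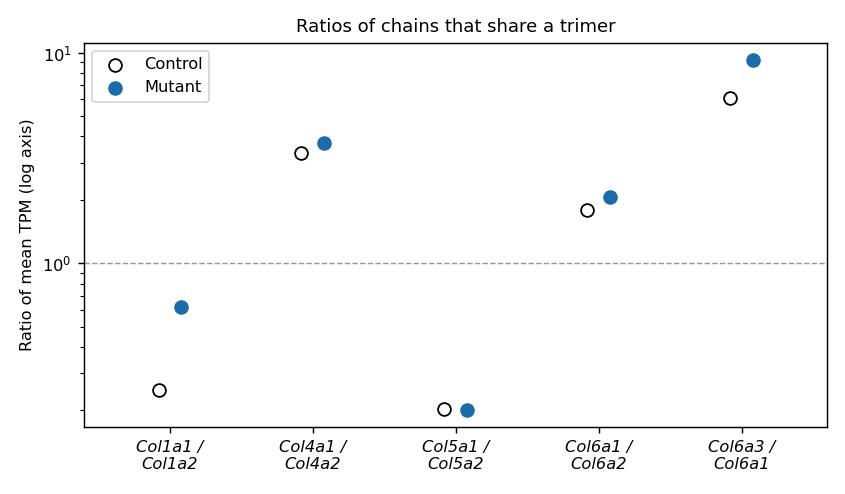
Ratio of the authors' mean TPM (log axis) between chains that share a trimer, in Control (open circles) and Mutant (filled circles), with equal levels at the dashed line. The ratio of Col1a1 to Col1a2 goes from 0.25 to 0.62, that of Col6a3 to Col6a1 from 6.07 to 9.22, and that of Col5a1 to Col5a2 stays at 0.20. The ratios carry no error, since each level is a group mean.

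FACIT chains summed to 39.3 TPM in Control and 39.0 TPM in Mutant, with 1 fall and 1 rise among 9 genes. Col19a1 (ENSMUSG00000026141, chr1:24261890-24587472, minus strand), a chain found near basement membranes and in developing muscle, fell from 17.9 to 11.6 TPM (authors' deposited table: -0.66, SE 0.13, adjusted p = 1.32e-05). Col12a1, which bridges fibres in dense connective tissue, was at 16.5 and 18.6 TPM and its estimate lay near 0 with a wide interval (authors' deposited table: -0.03, SE 0.29, interval -0.59 to 0.54). Col9a3 (ENSMUSG00000027570, chr2:180597790-180622189, plus strand), a chain of the cartilage collagen IX, rose from 0.972 to 3.39 TPM (authors' deposited table: 2.40, SE 0.50, adjusted p = 2.61e-05). Its partners Col9a1 and Col9a2 had estimates of the same sign, 2.46 (SE 1.23) and 2.07 (SE 0.93) by the authors' deposited table, but stood below 1 TPM in both groups and did not pass. Col16a1 was at 2.48 and 2.67 TPM (authors' deposited table: 0.46, SE 0.27, adjusted p = 0.299), and Col14a1, Col20a1 and Col22a1 were below 1 TPM.

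The smallest adjusted p-values among all chains belonged to Col7a1 and Col18a1, which lie outside the fibrillar, basement membrane and FACIT classes. Col18a1 (ENSMUSG00000001435, chr10:77052178-77166548, minus strand) encodes collagen XVIII, a proteoglycan of basement membranes whose end fragment is endostatin. It rose from 19.9 to 73.8 TPM, 3.70 times the Control mean (authors' deposited table: 1.89, SE 0.28, interval 1.35 to 2.43, adjusted p = 3.42e-10). It held 1.96% of collagen TPM in Control and 6.58% in Mutant. Col15a1, the other multiplexin, had the opposite sign at a low level, 1.68 and 0.340 TPM, and did not pass (authors' deposited table: -1.10, SE 0.55, adjusted p = 0.189).

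Col7a1 (ENSMUSG00000025650, chr9:108953586-108984875, plus strand), the chain of the anchoring fibrils that tie basement membrane to connective tissue, rose from 11.1 to 24.6 TPM (authors' deposited table: 1.05, SE 0.14, interval 0.78 to 1.33, adjusted p = 6.4e-12). Its SE was the smallest of the 6 chains that rose. Among the short-chain network collagens, Col8a2 (ENSMUSG00000056174, chr4:126286793-126314330, plus strand) rose from 0.568 to 1.76 TPM (authors' deposited table: 1.60, SE 0.35, adjusted p = 7.42e-05). Its abundant partner Col8a1 was at 32.8 and 44.2 TPM and did not pass (authors' deposited table: 0.42, SE 0.19, adjusted p = 0.114). Col10a1, known from hypertrophic cartilage, was at 1.86 and 4.66 TPM (authors' deposited table: 1.31, SE 0.66, adjusted p = 0.195). Col26a1 was at 14.8 and 11.0 TPM (authors' deposited table: -0.28, SE 0.21, adjusted p = 0.493).

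Transmembrane chains were all low. Their 4 genes summed to 5.65 and 4.44 TPM, all 4 had negative estimates, and 0 passed in the authors' deposited table (1, Col13a1, at an unadjusted p below 0.05). Col13a1, which sits in the muscle membrane at neuromuscular synapses, was the highest, at 3.06 and 2.33 TPM (authors' deposited table: -0.63, SE 0.31, adjusted p = 0.168). For 5 chains (Col3a1, Col5a1, Col12a1, Col11a1 and Col25a1) the ratio of mean TPM and the test estimate had opposite signs, and 0 of these passed.

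**Figure D3:**
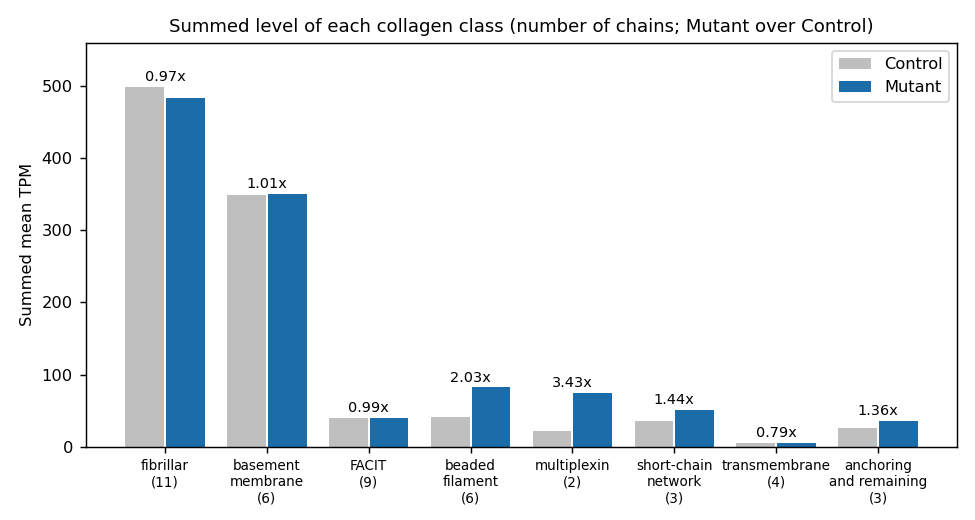
Summed mean TPM of the chains of each class in Control (grey bars) and Mutant (blue bars), with the number of chains in brackets and the ratio of Mutant over Control above the bars. Fibrillar and basement membrane chains together hold most of the collagen RNA and have ratios of 0.97 and 1.01, while beaded filament and multiplexin chains reach 2.03 and 3.43. The bars are sums of means and have no error.

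In the comparison of PT with PUT the abundant chains differed, most of them downward. Uhrf1 was lower in PT (authors' deposited table: log2 fold change -4.0, SE 0.27, adjusted p = 1.81e-48). Of the 42 chains, 22 passed, 7 higher and 15 lower in PT, which is 52.4% beside 47.2% of all genes (25.1% higher and 22.1% lower). The median was 0.08 over the chains and 0.14 over all genes. Of the 14 chains of at least 10 TPM in Control or Mutant, 12 passed, 3 higher and 9 lower, beside 69.4% of the 8917 genes at that level (29.7% higher and 39.6% lower). Their median was -0.75 beside -0.08 over all genes at that level. The source of both arms is unknown and the tables may share libraries, so the values of a chain are only set side by side.

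Of the 11 fibrillar chains 6 fell and 2 rose in PT. In the authors' deposited table of these arms Col3a1 fell by 1.49 (SE 0.08, adjusted p = 2.52e-84), a 2.81-fold lower level, beside an estimate of -0.03 in Mutant. In that authors' deposited table Col5a2 fell by 1.24 (SE 0.05, adjusted p = 2.13e-117), Col5a3 by 1.30 (SE 0.15, adjusted p = 5.88e-16) and Col5a1 by 0.49 (SE 0.08, adjusted p = 2.48e-09), so all chains of collagen V were lower in PT. By the authors' deposited table Col1a2 fell by 1.32 (SE 0.22, adjusted p = 1.68e-08) and Col27a1 by 2.25 (SE 0.28, adjusted p = 2.23e-14), and both had fallen in Mutant. Col1a1 did not pass (authors' deposited table: 0.18, SE 0.22, adjusted p = 0.546), which leaves a difference of 1.5 between the estimates of the type I chains. By the authors' deposited table Col2a1 (4.39, SE 0.88, adjusted p = 2.95e-06) and Col11a1 (2.32, SE 0.52, adjusted p = 3.04e-05) rose, with low means of 52.5 and 21.3 normalised counts over both arms.

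Of the 6 basement membrane chains 2 fell in PT, Col4a1 and Col4a2, 1 rose, Col4a4, and 3 did not pass. Col4a1 had a log2 fold change of -0.95 (SE 0.07, adjusted p = 2.4e-42) and Col4a2 of -0.96 (SE 0.07, adjusted p = 7.58e-37) by the authors' deposited table of PT and PUT, a difference of 0.01 between these head-to-head neighbours. Col4a4 rose (1.91, SE 0.62, adjusted p = 0.00543) with a mean over both arms of 11.5 normalised counts in the authors' deposited table. Col3a1 and Col5a2, which lie tail to tail on chromosome 1 with 24614 bases between them, had log2 fold changes of -1.49 and -1.24. By the authors' deposited table Col19a1 fell by 1.10 (SE 0.13, adjusted p = 2.31e-16), while its neighbour Col9a1, 9205 bases away, had 5.39 with an SE of 3.92 and did not pass.

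The chains of collagen VI differed in direction. In the authors' deposited table for PT and PUT, Col6a3 rose (2.05, SE 0.26, adjusted p = 5.38e-14), whereas Col6a1 (-0.72, SE 0.17, adjusted p = 8.39e-05) and Col6a2 (-0.54, SE 0.22, adjusted p = 0.0363) fell. Col6a1 thus had opposite signs in the tables, and so did Col7a1, which fell here (authors' deposited table: -0.79, SE 0.12, adjusted p = 1.32e-09). Col18a1 was higher in PT as in Mutant, but by less (authors' deposited table: 0.28, SE 0.09, adjusted p = 0.0069). The difference between these effects was not tested. Col9a3, Col8a2 and Col24a1, which rose in Mutant, did not pass here, with log2 fold changes of 0.23 (SE 0.40), 0.28 (SE 0.30) and 0.11 (SE 0.56) by the authors' deposited table.

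Of the remaining chains in the authors' deposited table for PT and PUT, Col10a1 (1.63, SE 0.30, adjusted p = 3.73e-07) and Col12a1 (0.88, SE 0.34, adjusted p = 0.0243) rose. In the same authors' deposited table Col13a1 (-2.08, SE 0.26, adjusted p = 3.41e-15), Col26a1 (-0.71, SE 0.21, adjusted p = 0.00219) and Col16a1 (-0.60, SE 0.24, adjusted p = 0.0293) fell. Col8a1 did not pass (authors' deposited table: 0.18, SE 0.18, adjusted p = 0.456). Col6a4 and Col6a6 had no row there.

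**Figure D4:**
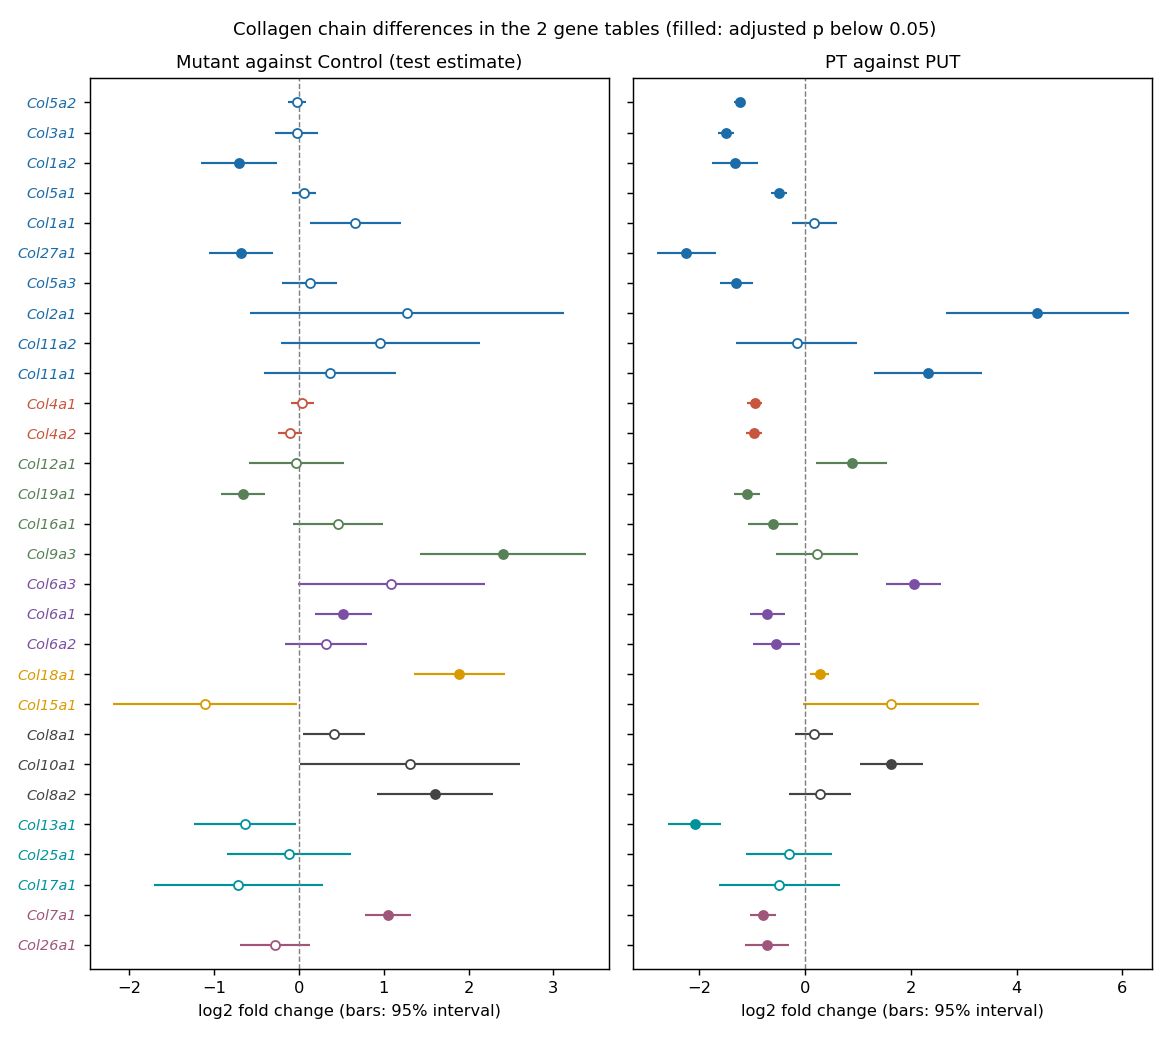
Log2 differences of the 29 chains of at least 1 TPM, with 95% intervals, for Mutant against Control (left) and PT against PUT (right). Filled points have an adjusted p below 0.05 and colours are the classes of the level plot. The abundant chains Col5a2, Col3a1, Col4a1 and Col4a2 sit between -0.10 and 0.04 on the left and between -1.49 and -0.95 on the right.

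Collagen chains are modified, folded, trimmed and crosslinked by a dedicated machinery, and 56 genes of it, in 6 lists, were counted in Mutant against Control. In the authors' deposited table, of these genes 20 rose, 1 fell and 35 did not pass. The 21 that passed are 37.5% of the lists, beside 17.1% of all genes (9.02% higher and 8.11% lower). Among the genes of at least 10 TPM, 35.4% passed (16.1% higher and 19.3% lower). The lists also hold genes below that level, so these shares are of unlike sets. At an unadjusted p below 0.05, 26 were higher and 5 lower. The median estimate was 0.21. In PT against PUT 52 of them were listed, and 18 rose, 12 fell and 22 did not pass. Those that passed are 57.7%, beside 47.2% of all genes (25.1% higher and 22.1% lower). Of the genes of at least 10 TPM 69.4% passed (29.7% higher and 39.6% lower), again an unlike set.

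The list of enzymes that hydroxylate and glycosylate the chains in the endoplasmic reticulum also held partner proteins such as Ppib and Crtap. It had 5 rises and 0 falls among 15 genes (9 and 0 at an unadjusted p below 0.05). Ppib was among the rises (authors' deposited table: 0.15, SE 0.06, adjusted p = 0.0498). Counts of this and the following lists stand beside 9.02% of all genes higher in Mutant and 8.11% lower. For genes of at least 10 TPM these shares were 16.1% and 19.3%. Plod2, the lysyl hydroxylase of the chain ends, rose from 39.4 to 73.7 TPM (authors' deposited table: 0.95, SE 0.08, adjusted p = 1.35e-26). P4hb, the beta subunit of prolyl 4-hydroxylase, rose from 352 to 468 TPM (0.40, SE 0.07), and P3h1, a prolyl 3-hydroxylase, from 19.9 to 27.1 TPM (0.45, SE 0.10), by the authors' deposited table. Among 10 chaperones and secretion factors 6 rose and 0 fell (2 lower at an unadjusted p below 0.05), led by the prolyl isomerases Fkbp14 (1.04, SE 0.18, adjusted p = 1.14e-07) and Fkbp10 (0.39, SE 0.08, adjusted p = 4.99e-05) and by Sec23a of the secretory coat (0.25, SE 0.07, adjusted p = 0.00327), by the authors' deposited table. Of 8 genes of propeptide cleavage 4 rose and 0 fell (1 lower at an unadjusted p below 0.05). Bmp1, the C-proteinase, rose from 28.5 to 47.8 TPM (0.73, SE 0.08, adjusted p = 3.98e-18), and the N-proteinases Adamts14 (0.42, SE 0.07) and Adamts2 (0.53, SE 0.16) rose too, by the authors' deposited table.

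Of 6 crosslinking genes 1 rose, the lysyl oxidase Loxl3 (0.27, SE 0.09, adjusted p = 0.0167), while Loxl4 (0.37, SE 0.19) and Loxl2 (-0.36, SE 0.26) did not pass (values of the authors' deposited table). Of 11 receptors in the authors' deposited table, Mrc2, which takes up collagen for degradation (0.59, SE 0.10, adjusted p = 2.08e-08), and Itgb1, the beta subunit of the collagen-binding integrins (0.17, SE 0.05, adjusted p = 0.01), rose. Ddr2, a receptor kinase for fibrillar collagen, was the 1 gene that fell (authors' deposited table: -0.17, SE 0.06, adjusted p = 0.0196). Calcr, a receptor through which collagen V is known to act on quiescent satellite cells, was named after its values were seen: it stood at 0.175 and 0.135 TPM. Of 6 collagen-binding leucine-rich proteoglycans, Fmod rose from 0.864 to 4.27 TPM (2.21, SE 0.36, adjusted p = 4.57e-08) and Prelp from 1.04 to 3.52 TPM (1.73, SE 0.34, adjusted p = 9.21e-06), and Aspn did not pass (-1.32, SE 0.55), by the authors' deposited table. Fmod is also on the list of tendon markers. Among the 3 genes per list with the smallest adjusted p, 14 rose in Mutant. Of these 14, 7 were also higher in PT (Plod2, Fkbp14, Sec23a, Adamts2, Itgb1, Fmod and Prelp), 3 were lower and 4 did not pass. The 3 lower ones were P3h1 (-0.39, SE 0.10), Adamts14 (-0.68, SE 0.08) and Loxl3 (-1.07, SE 0.08), in the authors' deposited table. Of the other genes that rose in Mutant, Creb3l1 was higher in PT and Sparc and Pcolce2 were lower. Plod1, Ppib and Mia3 did not pass there. Over all genes 25.1% were higher in PT and 22.1% lower.

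**Figure D5:**
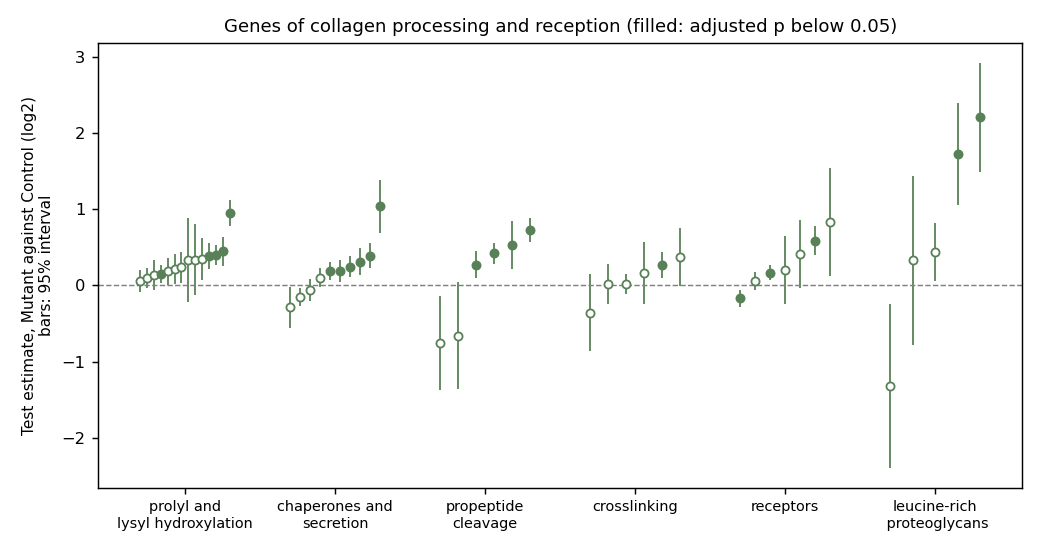
Test estimates (log2, with 95% intervals) of Mutant against Control for the 48 of 56 genes of collagen processing and reception that reached 1 TPM in either group, by list and ordered within each list. Filled points have an adjusted p below 0.05. All filled points except 1 receptor, Ddr2, lie above 0.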

How the data were processed

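Expression was measured in satellite cells of 3 Control, 3 Mutant and 3 Cre Control libraries. For Control and Mutant the submitters' processing notes name featureCounts 2.0.1, DESeq2, STAR 2.7.6a and Trim Galore 0.6.6, with the builds GRCm38 and mm10, and HISAT2 2.2.1 in place of STAR for Cre Control. Per the file headers, the authors deposited for Mutant and Control mean TPM per group, a log2 fold change, the statistic of their test (a score) with its standard error, and p-values before and after adjustment. Since that log2 value is only the ratio of mean TPM plus 1 (within 4.79e-08), it was replaced by the test estimate, statistic times standard error, for all differences. The table of PT and PUT, per the file headers, holds a mean signal (normalised counts averaged by the authors), a log2 fold change, its standard error, the statistic and p-values. Raw counts of repeat subfamilies, deposited for 6 libraries, had totals of 1794698 to 2245124. Roles of the tools, and which libraries entered the PT table, are not given in the sources used here.

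Adjusted p-values are the authors', over all genes of a table, and were called at 0.05; DESeq2 is the testing tool their notes name. The 95% intervals are the estimate plus or minus the normal quantile times the standard error. No further test was run on genes, because the gene tables hold no values per library. Chains of at least 10 TPM in a group, chains that passed in either table and partner chains were named, and of each pathway list the 3 genes with the smallest adjusted p. Further genes of the lists were named where a count needed them. Collagen classes, lists and members were chosen with earlier results of these data known. Positions are from GENCODE M21 (GRCm38) by gene identifier (all 44 chains matched), and promoters from RefSeq (GRCm38.p6). Scripts used Python 3.11.15, pandas 2.3.3 and scipy 1.17.1, and the adjustment used in the alternatives was tested on simulated data.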

Additional observations from a re-analysis of the deposited data

How the results depend on the processing

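Of the 9 chains that passed in Mutant against Control, 6 remained at a threshold of 0.01 (4 higher, 2 lower), and Col1a2, Col6a1 and Col24a1 were lost. Of the 22 in PT against PUT, 19 remained, and Col6a2, Col12a1 and Col16a1 were lost. In Mutant against Control, taking directions from the ratio of mean TPM or adjusting the p-values anew gave the same counts of chains and of processing genes, and a minimum of 1 TPM left 8 chains. In PT against PUT, adjusting anew gave the same counts of chains. At 0.01, 14 processing, crosslinking and receptor genes were higher and 0 lower (5 lower at an unadjusted p below 0.05). The median log2 ratio over the chains was 0.07 with a pseudocount of 1, 0.16 with 0.1 and 0.10 for chains of at least 1 TPM. Without its most abundant chain, the log2 ratio of a class sum went from 0.01 to -0.10 for basement membrane chains (without Col4a1), from 1.78 to -2.30 for multiplexins (without Col18a1), from 0.52 to 1.40 for short-chain network chains (without Col8a1) and from 0.45 to -0.45 for the anchoring and remaining chains (without Col7a1). For beaded filament chains it went from 1.02 to 0.47 (without Col6a3) and for FACIT chains from -0.01 to -0.16 (without Col12a1). For transmembrane chains it went from -0.35 to -0.30 (without Col13a1), and for fibrillar chains it stayed at -0.05 (without Col5a2). The cause was not tested. Shares of IAPEz-int stayed within their Wilson intervals when rare repeats were left out.

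No paired analysis was possible because the gene tables hold group means and comparisons, with no values per library, and for the same reason no replicate could be left out. The depth of the gene libraries is unknown, and the 15 chains under 1 TPM had a median standard error of 0.89, so that estimates as large as those of Col9a1 (2.46) and Col9a2 (2.07) did not pass.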
